A study of Komagataella pastoris with 15 samples.

Results

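The comparison set yeast cultures starved of carbon at the end of glycerol feeding against cultures of the same fermentors in logarithmic growth. Samples were chosen by their titles, which gave 3 arrays for the starved cultures and 3 for logarithmic growth, 6 of the 15 arrays of the series. The starved samples were taken after 40 min without a carbon source, just before methanol feeding, and the logarithmic growth samples in a phase for which the labels name no carbon source. The other phases were growth adapted to methanol, the phase labelled as the peak of production of recombinant human serum albumin (rhHSA), and the end of fermentation. All groups came from fermentors of 40 L, numbered 1 to 3 in every phase, with the yeast Pichia pastoris, which the labels call Komagataella pastoris. The labels used here give no strain, genotype, promoter or clone for the producing yeast, so the groups share whatever these were.

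Pichia pastoris can live on methanol as its only carbon source. It oxidises methanol in peroxisomes with alcohol oxidase, and splits the resulting formaldehyde between assimilation through dihydroxyacetone synthase and dissimilation to carbon dioxide. While glycerol or glucose is plentiful, transcription of these enzymes is repressed. When the carbon source runs out they are derepressed in part, and methanol itself is needed for full induction, which is why production processes pass through a short starvation before methanol is fed.

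The arrays identify each probe by a locus tag alone, and 0 of the 5039 tags had an entry in the reference table used here. The methanol genes, the glycerol genes and the other gene groups named in the study plan were therefore not analysed here, and neither was the product transcript. Whether the cultures carried the known marks of starvation could not be checked by gene name. The results are given for tags, at most 2 that rose and 2 that fell, and for groups of tags set by the size of their change. Of the 6 arrays, 2 came from one scan, those of fermentor 1, and 4 from another. Between 98.8% and 99.9% of tags were well above background on each of the 6 arrays, and the number of arrays limits the precision. Between arrays 2 and 3 of logarithmic growth the differences were smaller than spot noise, with 2.33% of tags beyond it at an unadjusted p below 0.05. Both were counted as 1 sample, so n = 2 for that phase and n = 3 for the starved cultures, and the SDs of both include the difference between scans. Arrays labelled rhHSA peak were most like logarithmic growth on both scans (r of 0.976 and 0.975 across tags, against 0.913 and 0.922 with methanol-adapted cells), and whether they hold the labelled phase could not be settled here. Every value given for them below, and every later course that includes them, is therefore open to that doubt. The likeness does not show which of the 2 labels is in doubt. Logarithmic growth is the baseline of the main comparison, and its arrays 2 and 3 are labelled as different fermentors though they differ by less than spot noise.

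The first question was how far the transcriptome of starved cells differed from that of cells in logarithmic growth. Of 5024 tags tested, 3368 (67.0%) changed, with 1679 higher (33.4%) and 1689 lower (33.6%) in starved cells by limma with scan as a block at a Benjamini-Hochberg adjusted p below 0.05. By at least 2-fold, 480 tags rose (9.55%) and 534 fell (10.6%). Most changes were small. The median absolute change over all tested tags was 0.51 log2 units, and the middle 90% lay between the 5th percentile of -1.38 and the 95th of 1.28. At 4-fold or more 53 tags rose and 63 fell, and at 8-fold or more 10 rose and 12 fell. Rises and falls were thus close to balanced in every size class, and the median change of all tags was -0.013. Signals are relative to the other probes of an array, so a change in the total amount of messenger RNA per cell would not show in these values.

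**Figure D1:**
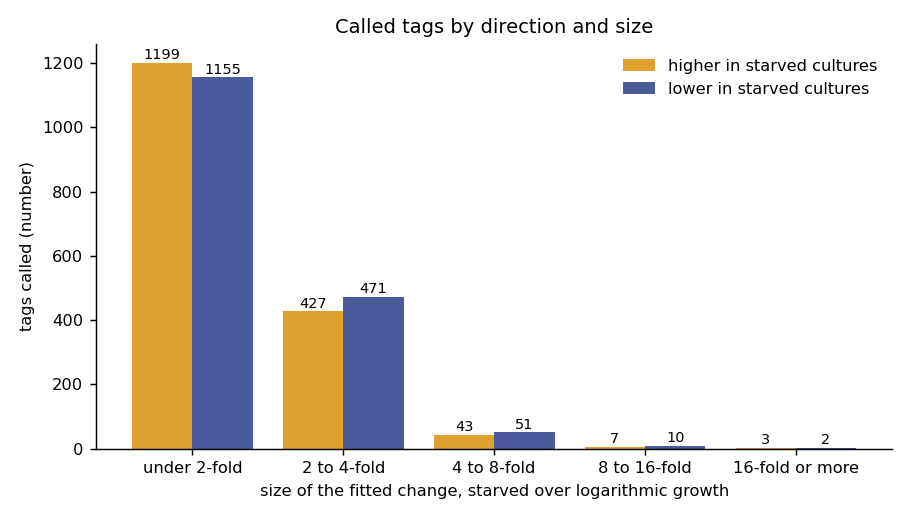
Number of tags called at an adjusted p below 0.05, by direction and by size of the fitted change (starved over logarithmic growth). Bars of both directions are of similar height in each class below 8-fold. Counts there run from 1199 higher and 1155 lower tags under 2-fold to 43 higher and 51 lower between 4-fold and 8-fold.

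The changes were larger than the differences between arrays of a phase on the same scan. The standard deviation of the change over tags was 0.84 log2 units, whereas the difference between starved arrays 2 and 3 had a standard deviation of 0.18. In the later phases with a pair of arrays on scan 2 it was 0.41 in methanol-adapted cells and 0.42 on the arrays labelled rhHSA peak. For logarithmic growth arrays 2 and 3 it was 0.092, which is spot noise rather than spread between samples. Between arrays of 1 phase on different scans it was 0.71 to 0.76 in starved cells and 0.80 to 0.81 in logarithmic growth, about as large as the change itself. Each scan held both groups, so every change could also be taken within a scan. For 2453 tags (48.8%) the 6 arrays of the groups did not overlap even across scans, and 2270 of these were also called, which is 92.5% of the 2453 and 45.2% of all tested tags.

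PAS_chr3_0023 had the largest rise. Its log2 signal, given here minus the 75th percentile of its array, was 1.92, 2.56 and 2.64 in starved fermentors 1, 2 and 3, against -3.30, -2.60 and -2.63 in logarithmic growth. Every starved array was far above every logarithmic growth array. It averaged 2.37 ± 0.39 in starved cells (SD, n = 3) and -2.96 ± 0.49 in logarithmic growth (SD, n = 2). The fitted change was 5.20 ± 0.16 (SE), or 36.8-fold (limma adjusted p = 1.94e-09). Taken within scan 1 it was 5.22, and within scan 2 it was 5.21.

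In the next phase PAS_chr3_0023 remained far above logarithmic growth, and it had low values on the arrays labelled rhHSA peak. In methanol-adapted cells its signal was 1.51, 2.43 and 1.98, a fitted difference from starved cells of -0.40 ± 0.14 (SE; limma adjusted p = 0.0271). This call was lost with median centring (-0.35, limma adjusted p = 0.0552) and with quantile normalization (-0.11, limma adjusted p = 0.509). It stood at -3.25, -2.49 and -2.00 on the arrays labelled rhHSA peak, close to logarithmic growth, and at 0.79, 0.79 and 0.81 at the end of fermentation.

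PAS_chr4_0152 had the next largest rise. Its signal was 0.088, 1.18 and 1.30 in starved fermentors 1, 2 and 3, against -5.07, -3.41 and -3.37 in logarithmic growth. The groups did not overlap, and within each group the array of fermentor 1, on the other scan, was the lowest. The mean was 0.85 ± 0.67 in starved cells (SD, n = 3) and -4.23 ± 1.2 in logarithmic growth (SD, n = 2). The fitted change was 4.84 ± 0.19 (SE), or 28.6-fold (limma adjusted p = 9.78e-09). Taken within scan 1 it was 5.15, and within scan 2 it was 4.63. In methanol-adapted cells the signal was -1.24, 0.28 and 0.050. This was lower than in starved cells by a fitted -1.16 ± 0.17 (SE; limma adjusted p = 1.75e-04), so the tag was higher during starvation than once methanol was the carbon source. Arrays labelled rhHSA peak had -4.99, -3.49 and -3.07, again near logarithmic growth, and the end of fermentation had -1.75, -1.87 and -2.33.

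PAS_chr2-1_0015 had the largest fall. Its signal was -8.12, -6.20 and -6.13 in starved fermentors 1, 2 and 3, against -1.40, -1.92 and -1.77 in logarithmic growth. The groups were far apart, but the starved spots were dim, at processed signals of 94.4, 85.8 and 109.3 on arrays 1 to 3, each nevertheless well above background. The fitted change was -5.47 ± 0.56 (SE; limma adjusted p = 6.74e-06). It was -6.72 on scan 1 and -4.32 on scan 2, and without logarithmic growth array 1 the fitted change was -4.26 (limma adjusted p = 1.98e-05), so the direction was the same while the size was not well fixed. The signal remained low in methanol-adapted cells, at -8.4, -5.6 and -5.1 on arrays 1 to 3 (processed signals of 118, 224 and 592). It lay below starved cells on scan 1 and above them on scan 2. The fitted difference from starved cells was 0.44 ± 0.50 (SE; limma adjusted p = 0.463), and with such dim spots it does not show that the level was unchanged. The signal was also low on the arrays labelled rhHSA peak, at -8.49, -6.78 and -7.32. In this it departed from the other 3 named tags, whose values there lay nearer to logarithmic growth than to starvation. At the end of fermentation it was -4.39, -4.42 and -4.46.

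PAS_chr4_0369 had the next largest fall and the tightest values. Its signal was -1.15, -1.01 and -1.04 in starved fermentors 1, 2 and 3, against 2.92, 2.97 and 2.96 in logarithmic growth. Arrays of a phase lay close together on both scans, at a mean of -1.06 ± 0.073 in starved cells (SD, n = 3) and 2.94 ± 0.028 in logarithmic growth (SD, n = 2). The fitted change was -4.02 ± 0.088 (SE), or 16.2-fold lower (limma adjusted p = 1.41e-09). In methanol-adapted cells the signal was -0.50, -0.39 and -0.20, higher than in starved cells by 0.70 ± 0.079 (SE; limma adjusted p = 4.15e-05). The signal was 1.75 and 1.61 on arrays 1 and 3 labelled rhHSA peak (array 2 had no spot left after the outlier flags), and 0.44, 0.41 and 0.45 at the end of fermentation. The lowest of its 5 phase means was that of starved cells.

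**Figure D2:**
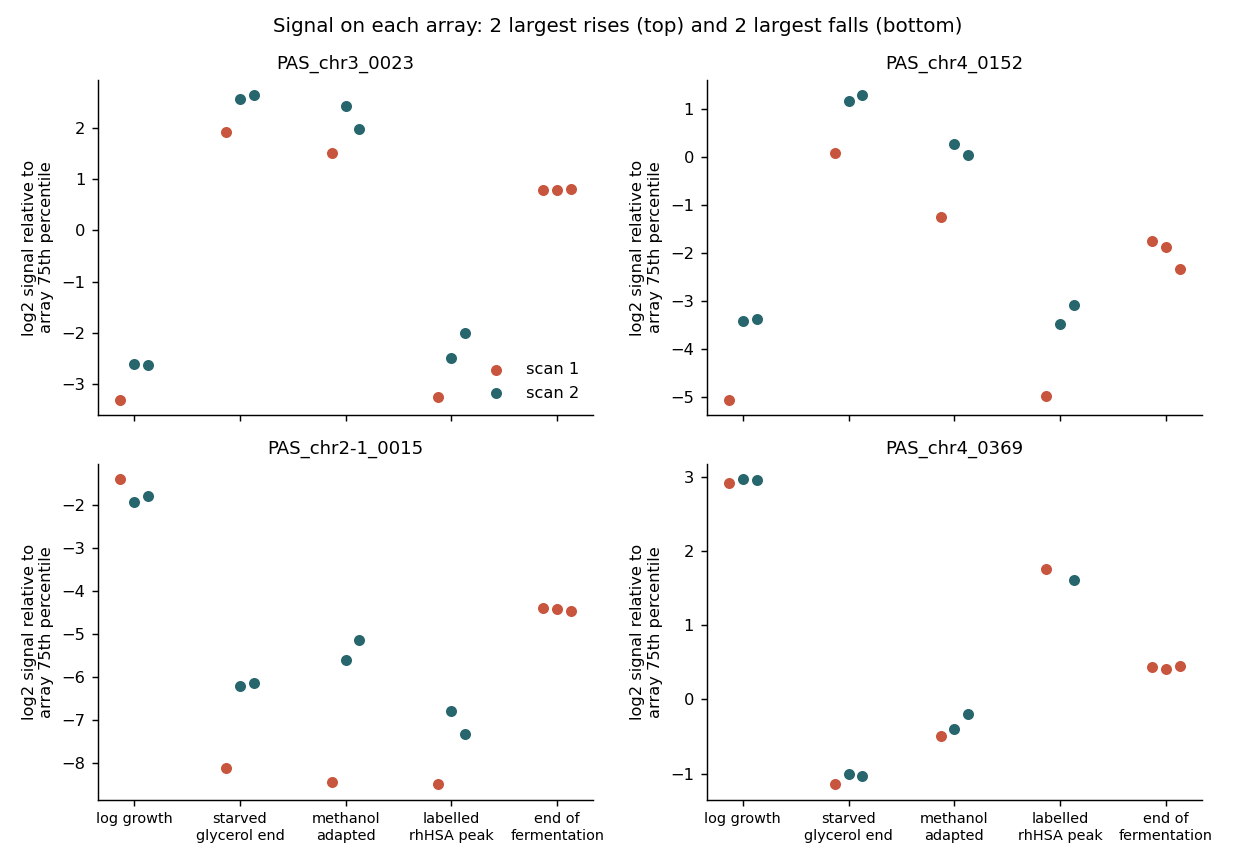
Log2 signal minus the 75th percentile of its array for the 2 tags with the largest rise and the 2 with the largest fall, on each of the 15 arrays, over the 5 phases. Each point is 1 array, placed left to right by fermentor and coloured by scan. In the starved and logarithmic growth columns the groups do not overlap for any of the 4 tags.

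The change was then taken within each scan, since scan 1 held fermentor 1 alone and scan 2 held fermentors 2 and 3. Across the 4926 tags with a value on both, both sets of changes correlated at r = 0.940 (a description across tags, which are not independent replicates). Each scan has 1 logarithmic growth sample, since arrays 2 and 3 count as 1. Among called tags, 3327 had a value on both scans, and 3325 of these had the same direction on both. All 1000 called tags of at least 2-fold with such values did so, 473 of them higher and 527 lower. Among the 1599 tags not called, 1147 (71.7%) had 1 direction. The calling used these same values, so these counts describe the called tags. The test that follows had 5 residual degrees of freedom and 1 array per group on scan 1, so it could miss real differences. PAS_chr2-1_0015, whose change differed between scans by 2.40 ± 0.37 log2 units (SE), was not called by it. Its dim starved spots had processed signals of 94.4, 85.8 and 109.3 on arrays 1 to 3. The 75th percentiles of those arrays, to which signals were scaled, were 26189, 6320 and 7666. Whether its scan difference lay in the cultures was not tested. A test of whether the change differed between scans (limma, phase by scan interaction) called 1 of 4926 tags, with 114 at an unadjusted p below 0.05 (2.31%).

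**Figure D3:**
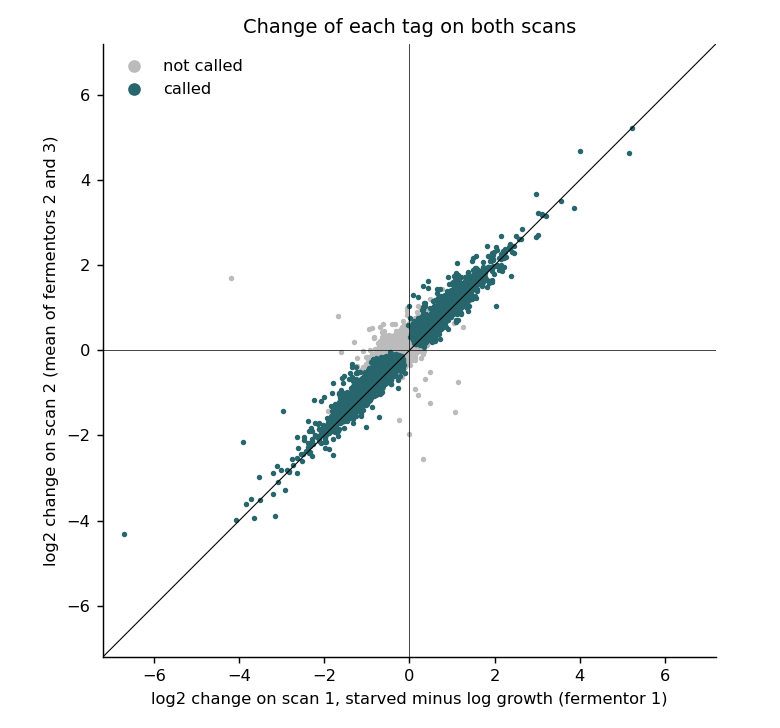
Log2 change (starved minus logarithmic growth) of each tag on scan 1 (fermentor 1) against that on scan 2 (mean of fermentors 2 and 3), with called tags in dark green and the line of equality. The 4925 points drawn gather along the line, and 1 tag lies outside the plotted range.

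The second question was how the starvation response relates to growth on methanol. To keep choice and measurement apart, tags were chosen on the starved and logarithmic growth arrays of 1 scan and described on the arrays of the other scan. On scan 1, 44 tags were at least 4-fold higher in starved fermentor 1. On scan 2, in fermentors 2 and 3, all 44 of these were higher in starved cells by at least 2-fold. Their median difference from logarithmic growth was 2.43 log2 units in starved cells, 2.32 in methanol-adapted cells and 0.45 on the arrays labelled rhHSA peak. These 3 differences share the logarithmic growth arrays of scan 2. Arrays of fermentors 2 and 3 taken singly gave medians of 2.42 and 2.47 in starved cells and 2.40 and 2.27 in methanol-adapted cells, against what is in effect 1 logarithmic growth baseline.

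Few of these tags, chosen for a large rise in starved cells, moved 2-fold or more further on methanol, and the same held for tags in general. Over all 5024 tested tags, 2.67% were called higher and 5.77% lower by at least 2-fold in methanol-adapted against starved cells. Those shares come from the fit over both scans. Set directly against starved cells on scan 2, methanol-adapted cells were within 2-fold for 40 of the 44 tags. No tag was higher by 2-fold or more in methanol-adapted cells and 4 were lower by as much, and the median difference was -0.23 log2 units. With quantile normalization, which chose 63 tags, 54 were within 2-fold, 3 were higher and 6 lower by 2-fold or more, and the median was -0.079. In 42 of the 44, methanol-adapted cells remained at least 2-fold above logarithmic growth. Of the 5024 tested tags, 680 were that far above it in methanol-adapted cells on scan 2. On the arrays labelled rhHSA peak 3 of the 44 were at least 2-fold above logarithmic growth. The share of all tags was not taken for those arrays.

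The 69 tags that were at least 4-fold lower in starved fermentor 1 included 68 with a value in each phase on scan 2. In fermentors 2 and 3, 67 of the 68 were lower by at least 2-fold in starved cells, with a median of -2.16 log2 units. The median was -2.53 in methanol-adapted cells and -0.49 on the arrays labelled rhHSA peak. Methanol-adapted cells were within 2-fold of starved cells for 58 of the 68 tags, lower still by 2-fold or more for 5, and higher by as much for 5. Over all tested tags 5.77% were called lower and 2.67% higher by as much in the fit over both scans. Starved cells were at least as far from logarithmic growth as methanol-adapted cells for 24 of these 68 tags that fell, and for 29 of the 44 that rose. With quantile normalization, which chose 70 tags that fell and 63 that rose, these counts were 34 and 39.

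Choosing on scan 2 and measuring on scan 1 gave the same order and also took in the end of fermentation, whose 3 arrays were all on scan 1. Of 53 tags chosen as at least 4-fold higher, 52 had a value in each phase, and all 52 were higher by at least 2-fold in starved fermentor 1. Their medians against logarithmic growth were 2.24 in starved cells, 2.20 in methanol-adapted cells, 0.20 on the array labelled rhHSA peak and 1.32 at the end of fermentation. The 58 tags chosen as lower had medians of -2.44, -2.63, -0.51 and -1.87 in the same order of phases. At the end of fermentation 30 of the 52 and 45 of the 58 lay at least 2-fold from logarithmic growth in their first direction. The share of all tags past 2-fold in that phase was not taken, so these counts cannot be set against it. Across tags on scan 1, the end of fermentation correlated with logarithmic growth at r = 0.910, and starved cells did at r = 0.933. The 58 include PAS_chr3_1008, whose scan 2 value rests on 1 dim spot, and without it the medians of the other 57 were -2.47, -2.65, -0.51 and -1.88. On scan 1 logarithmic growth and the next 3 phases had a single array each, so these medians have no replicate spread and the end of fermentation too is set against 1 baseline array.

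**Figure D4:**
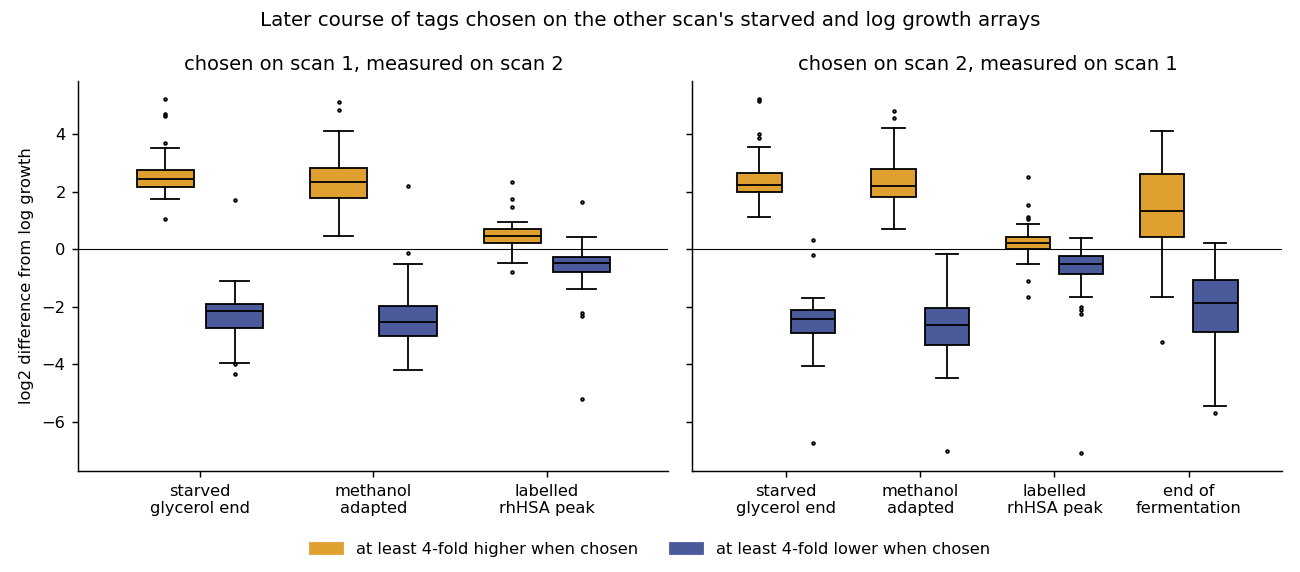
Log2 difference from logarithmic growth in each later phase, for tags chosen as at least 4-fold higher or lower in starved cells on the arrays of the other scan. Boxes span the quartiles with the median as a line, whiskers reach 1.5 times the interquartile range, and dots are tags beyond it. Boxes of starved and methanol-adapted cells are at similar heights, and those of the arrays labelled rhHSA peak are near 0.

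The reverse choice asked how many tags that differed from logarithmic growth in methanol-adapted cells already did so in starved cells. Choice and measurement were both set against logarithmic growth. The shares below therefore count any tag set apart in logarithmic growth, whatever its link to methanol. On scan 1, 88 tags were at least 4-fold higher in methanol-adapted cells than in logarithmic growth, and 87 of them had a value in each phase on scan 2. There, 70 of the 87 (80.5%) were already at least 2-fold higher in starved cells, before methanol was fed, against 10.9% of all tags with a value on that scan. The share was smaller when a smaller change on methanol was required. Of 614 tags chosen as at least 2-fold higher in methanol-adapted fermentor 1, 345 (56.2%) were past 2-fold in starved cells on scan 2. For the 87 tags the median difference from logarithmic growth was 1.75 log2 units in starved cells and 2.55 in methanol-adapted cells. Methanol-adapted cells exceeded starved cells by 2-fold or more for 34 of the 87 tags and were within 2-fold for 52. In starved cells 17 of the 87 tags were under 2-fold, and 6 of these were below their logarithmic growth level.

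Among tags at least 4-fold lower in methanol-adapted fermentor 1, 194 had a value in each phase on scan 2. In starved cells 157 of them (80.9%) were already at least 2-fold lower, against 10.03% of all tags on that scan. At the 2-fold choice 410 of 974 (42.1%) were, so most of that wider set had not yet passed 2-fold. For the 194 tags the median was -1.52 log2 units in starved cells and -2.36 in methanol-adapted cells. For 68 of the 194 the level in methanol-adapted cells was lower by a further 2-fold or more. Starved cells were at least as far from logarithmic growth as methanol-adapted cells for 14 of the 194, and for 18 of the 87 higher tags. These shares were smaller than those above for tags chosen in starved cells, so they depended on the phase used for the choice. Choosing on scan 2 and measuring on scan 1 gave 69 of 102 higher tags (67.6%) and 144 of 170 lower tags (84.7%) already past 2-fold in starved cells, and 289 of 677 (42.7%) and 474 of 966 (49.1%) at the 2-fold choice. The corresponding shares of all tags on scan 1 were 8.67% higher and 12.2% lower. At the 4-fold choice the share among higher tags depended on the scan used for the choice more than that among lower tags.

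Over all tags, the move on to methanol was smaller than the starvation step. The standard deviation of the fitted change was 0.60 log2 units for methanol-adapted against starved cells and 0.84 for starved against logarithmic growth, and 424 tags (8.44%) against 1014 tags (20.2%) were called with at least 2-fold. For methanol-adapted against starved cells 3111 tags were called at any size (61.9%), with 1127 higher (22.4%) and 1984 lower (39.5%). At 2-fold or more 134 rose (2.67%) and 290 fell (5.77%) in methanol-adapted cells. This split depended on the scaling, because the median change of all tags at this step was -0.12. With quantile normalization that median was -0.016, with 1332 tags higher and 1456 lower, and 195 and 197 at 2-fold or more. With median centring it was -0.077, with 1267 higher and 1814 lower. Both comparisons use the starved arrays, and the difference between them was not tested.

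A comparison that shares no array with the starvation step, though it shares the scan term of the fit, is that of the arrays labelled rhHSA peak with methanol-adapted cells, in which 539 tags (10.7%) fell and 764 (15.2%) rose by at least 2-fold. Of the 480 tags that rose by at least 2-fold in starvation, 224 fell there, which is 46.7% of the 480 and 41.6% of the 539. Of the 534 that fell in starvation, 313 rose there, or 58.6% of that list and 41.0% of the 764. Changes in the same direction in both comparisons were seen for 2 tags that rose and 2 that fell. Across 5024 tags the changes correlated at r = -0.667, and at r = -0.640 with the starvation change from scan 1 and the other change from scan 2. By these counts the tags that moved during starvation were often the ones that moved the other way between methanol-adapted cells and the arrays labelled rhHSA peak. Methanol-adapted cells were most like starved cells (r of 0.967 on scan 1 and 0.965 on scan 2). The arrays labelled rhHSA peak were most like logarithmic growth. Opposite changes follow from these likenesses, so the counts and correlations restate them and are not separate support.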

How the data were processed

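Each array held Cy3-labelled cRNA of 1 fermentor at 1 phase. The deposited scanner files give spot intensity on a linear scale, background-subtracted within the array by Agilent Feature Extraction 10.7.3.1, per the file headers (9.1 per the submitters' processing notes). The authors' deposited table of log2 values covers 3915 of 5039 tags. Its scale and direction follow the scanner values (r from 0.983 to 0.988), its column medians were 12.6 to 12.7, and its centring and normalization are not given in the sources used here. It served as an alternative.

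Log2 processed signal of non-control spots was scaled to the array's 75th percentile, and replicate spots (3 per probe) were averaged, leaving out those flagged as outliers (2.26% of probe values missing). Tags well above background (at least 2 spots) on all 3 arrays of any phase were tested with limma 3.58.1 (R 4.3.3, jsonlite 2.0.0). The fit had 5 phase means plus scan over all 15 arrays, with logarithmic growth arrays 2 and 3 averaged. Fitted changes adjust for scan and can differ from differences of plain means. Figures used Python 3.11.15 and matplotlib 3.10.9.

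On simulated data for this comparison (3991 tags), 58.0% of changes of 0.5 log2 units, 88.0% of 1, and 100% of 2 and of 4 were called, with 9 of 3791 unchanged tags. The simulation used tags with a value on every array, independent normal noise and 50 changed tags of each size. Its changed share was far below the 67.0% of tags called in the data, so these rates need not hold there. Named tags are the 2 largest rises and falls among called tags measured on each of the 6 arrays whose groups do not overlap. The planned gene lists could not be matched. Comparison, lists and tests were chosen with earlier results of these data known. The labels pair samples by fermentor. The difference between arrays 2 and 3 correlated between starved cells and logarithmic growth at r = -0.030, between starved and methanol-adapted cells at 0.153, and between logarithmic growth and methanol-adapted cells at -0.146. In logarithmic growth that difference is within spot noise. Alternatives covered the blocks, samples, scaling, background, filter, thresholds and leaving out arrays.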

Additional observations from a re-analysis of the deposited data

Results flagged for a closer look

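For PAS_chr3_1008, chosen after its values were seen, the change from logarithmic growth to starvation differed between scans by -10.3 ± 0.32 log2 units (SE, scan 2 minus scan 1; limma adjusted p = 0.00207). The change was -0.19 on scan 1 and -10.4 on scan 2, and the tag was not called over both scans. On starved array 2 a single spot was left after the outlier flags, at a processed signal of 6.66, while the 2 spots flagged and left out had 14462 and 10385. On starved array 3 all 3 spots were flagged, at 16064, 16126 and 15418. The change on scan 2 thus rests on 1 dim spot.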

How the results depend on the processing

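The direction and call of the 4 named tags were the same in all 75 refits run on them (19 for each tag but PAS_chr4_0369, which the authors' table lacks and which had 18). Their changes ranged from 5.12 to 5.33 for PAS_chr3_0023, from 4.63 to 5.08 for PAS_chr4_0152, from -5.78 to -4.26 for PAS_chr2-1_0015 and from -4.03 to -3.92 for PAS_chr4_0369. The count of 3368 called tags (1679 higher, 1689 lower) was 1853 (910 and 943) without the scan block, all 1853 among the 3368 and in the same direction, and 1940 (1005 and 935) on scan 2 alone, with fewer samples. At 2-fold or more it was 1014 (480 and 534). Leaving out 1 array gave 2909 to 3372 tags, 1485 to 1688 higher and 1424 to 1706 lower. With fermentor as a replicate block the pairing gave 3669 tags with scan and 2993 without, logarithmic growth arrays 2 and 3 being kept separate, and changed no call of a named tag. Averaging starved arrays 2 and 3 to 1 sample too gave 3149 tags (1538 and 1611). The other alternatives gave between 2703 (normexp background correction, chosen after seeing the data) and 3886 (only the 6 arrays). Median centring (3391) and quantile normalization (3321) moved the share of higher calls by under 2 percentage points. For methanol-adapted against starved cells the called tags were 3111, 3081 with median centring and 2788 with quantile normalization, the share higher moving by over 10 percentage points with the last (to 47.8%, against 36.2% with the 75th percentile). The choice of tags on 1 scan, the scalings of the methanol step, the test between scans and the comparison with the arrays labelled rhHSA peak were also added after seeing the data. Planned normexp on mean signals and the gene lists were not run. Causes were not tested.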

Other observations

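The first part of a locus tag gives a chromosome or fragment name. Over the 7 prefixes beginning with chr, between 8.51% and 13.1% of tested tags rose by at least 2-fold in starved cells and between 8.30% and 12.6% fell, near the 9.55% and 10.6% of all tags. The prefix c131 had 6 of 20 tags higher and 0 lower by at least 2-fold, and FragD had 0 of 25 higher and 1 lower (limma with scan as a block, adjusted p below 0.05). In all, 12 of the 20 and 15 of the 25 tags were called at any size. FragB had 9 of 69 tags higher and 6 lower, and c121 had 1 of 18 higher and 2 lower. No test was made between prefixes.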
